A study of Mus musculus with 8 samples.

Results

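The interferon response genes were 47 listed mouse genes that interferons are known to induce, from the transcription factors of the pathway to antiviral enzymes, antigen-presentation genes and chemokines. Of these, 45 were measured by a probe set that the array annotation ties to a single gene symbol, among 18193 genes measured in that way. Ifi44 had no such probe set, and the only probe set of Isg15 was shared with Gm9706 and is described apart. Where a gene had several probe sets, as 20 of the 45 did, the one with the highest mean over the 8 arrays stood for the gene.

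Interferons bind receptors at the cell surface, and the receptors' kinases phosphorylate STAT proteins, which with IRF9 enter the nucleus and bind the interferon-stimulated response element of target promoters. Pluripotent cells are known for a weak interferon response, and many interferon-stimulated genes are expressed at a basal level without added interferon.

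The arrays measured RNA of mouse pre-iPSCs, cells stopped part of the way through reprogramming to pluripotency, grown in embryonic stem cell medium. Cells received siRNA for 3 days against luciferase, which mouse cells lack (the control, 3 arrays), against Ehmt1, Ehmt2 and Setdb1 together (named 3XHMT, 2 arrays), or against Cbx3 (3 arrays). Ehmt1, Ehmt2 and Setdb1 encode methyltransferases of histone H3, and Cbx3 encodes the heterochromatin protein HP1gamma that binds such methylation. No interferon treatment is named in the labels, nor are the strain, the cell line or what was repeated between biological replicates, so the p-values measure the spread between these samples, which may be technical. In a bulk RNA sample, fewer cells expressing a gene and less RNA per cell cannot be told apart.

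All values were log2 signals. The brightest Cbx3 probe set, shared with the pseudogene Cbx3-ps5, read 11.79 to 12.25 on the Cbx3 arrays against 13.06 to 13.33 on the luciferase arrays, which is 42.8% of the luciferase level (limma, adjusted p = 0.0453 over all probe sets). On the 3XHMT arrays the brightest probe sets of Setdb1, Ehmt2 and Ehmt1 stood at 63.2%, 66.8% and 79.6% of the luciferase level, none past the threshold. Of 8 pluripotency and reprogramming markers, Pou5f1 was the brightest (mean 12.95) and Fut4 the dimmest (4.11), and 2 lay below the median probe set at 5.89. Below it also lay 7 of 8 fibroblast markers and 7 of 11 blood markers. The blood markers ran from Ptprc (mean 3.37) to the macrophage marker Cd68 (mean 7.63), which lay above it. The arrays fell into 3 sets by the control probe set for the middle of 18S ribosomal RNA, here called 18S sets. Luciferase 3, 3XHMT 2 and Cbx3 3 were low (9.98 to 10.17), luciferase 1 and Cbx3 1 were in the middle (11.22 and 11.50), and luciferase 2, 3XHMT 1 and Cbx3 2 were high (12.57 to 12.82). The labels do not call these sets a batch. Each group had arrays in more than 1 set, so tests are also given with the 18S set as a block.

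To show what the promoters of these genes held, RefSeq windows of 300 bases around the transcription start (GRCm38.p6, 250 bases before to 50 after) were searched on both strands for the core of the interferon-stimulated response element, GAAA followed by any 2 bases and GAAA (ISRE), and for the gamma-activated site, a second sequence of interferon-induced promoters, TTCNNNGAA (GAS). Windows were matched for 36 of the 47 genes. The ISRE core was present in 16 of these 36 genes (44.4%) against 3.99% of 27025 genes, and in 3.44% of all 32851 promoters. GAS letters were present in 10 of 36 (27.8%) against 9.55% of genes and 8.30% of promoters. Of the 36, 12 held the ISRE core only, 6 GAS only, 4 both and 14 neither.

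The windows of 6 members are printed, those whose values are described in detail, 5′ to 3′ on the gene's strand with matches of either motif in capitals. Ifit1 (chr19:34640639-34640938 on the plus strand) held a pair of ISRE cores upstream of its start and had a dim probe set. Ifitm3 (chr7:141010695-141010994 on the minus strand) held ISRE cores just after its start, with a GAS match overlapping one of them, and had a bright probe set. Oas1a (chr5:120907476-120907775 on the minus strand) held overlapping ISRE cores and an upstream GAS match. Ifih1 (chr2:62646206-62646505 on the minus strand) held 1 ISRE core after its start. The third of the windows listed for Adar (chr3:89730468-89730767 on the plus strand) held a GAS match and the others neither motif. Lgals3bp (chr11:118401910-118402209 on the minus strand), the member with the largest difference between the knockdowns, held neither set of letters. For Lgals3bp, Adar and the others, a motif not found says only that its exact letters are not in the window. Sequences close to the motif were not searched.
Ifit1: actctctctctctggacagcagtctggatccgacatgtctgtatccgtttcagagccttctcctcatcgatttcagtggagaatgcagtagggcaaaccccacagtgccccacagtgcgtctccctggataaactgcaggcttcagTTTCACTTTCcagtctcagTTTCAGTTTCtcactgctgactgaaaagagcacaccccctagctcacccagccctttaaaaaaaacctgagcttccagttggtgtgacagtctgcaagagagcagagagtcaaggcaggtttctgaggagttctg
Ifitm3: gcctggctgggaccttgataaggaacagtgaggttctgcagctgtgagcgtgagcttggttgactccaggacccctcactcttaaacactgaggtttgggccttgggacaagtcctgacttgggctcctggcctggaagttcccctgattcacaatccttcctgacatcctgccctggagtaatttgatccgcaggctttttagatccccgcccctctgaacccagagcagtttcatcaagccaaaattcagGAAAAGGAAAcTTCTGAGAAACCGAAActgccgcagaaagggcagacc
Oas1a: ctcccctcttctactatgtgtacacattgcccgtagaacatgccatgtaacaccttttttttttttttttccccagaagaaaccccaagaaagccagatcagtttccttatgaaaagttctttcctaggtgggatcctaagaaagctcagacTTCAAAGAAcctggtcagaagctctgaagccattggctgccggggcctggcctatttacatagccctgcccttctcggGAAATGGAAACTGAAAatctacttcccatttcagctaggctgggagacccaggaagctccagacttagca
Ifih1: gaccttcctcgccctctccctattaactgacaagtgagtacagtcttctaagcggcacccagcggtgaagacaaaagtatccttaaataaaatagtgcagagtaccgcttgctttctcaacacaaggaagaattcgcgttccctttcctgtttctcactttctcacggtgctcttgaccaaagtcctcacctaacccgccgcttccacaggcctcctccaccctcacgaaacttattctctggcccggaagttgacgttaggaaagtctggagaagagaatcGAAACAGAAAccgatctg
Adar: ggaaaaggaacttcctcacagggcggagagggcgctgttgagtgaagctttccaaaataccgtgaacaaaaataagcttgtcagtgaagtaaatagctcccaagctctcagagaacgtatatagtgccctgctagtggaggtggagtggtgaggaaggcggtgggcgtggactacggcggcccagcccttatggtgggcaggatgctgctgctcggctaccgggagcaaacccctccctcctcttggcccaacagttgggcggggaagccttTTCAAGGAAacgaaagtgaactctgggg
Lgals3bp: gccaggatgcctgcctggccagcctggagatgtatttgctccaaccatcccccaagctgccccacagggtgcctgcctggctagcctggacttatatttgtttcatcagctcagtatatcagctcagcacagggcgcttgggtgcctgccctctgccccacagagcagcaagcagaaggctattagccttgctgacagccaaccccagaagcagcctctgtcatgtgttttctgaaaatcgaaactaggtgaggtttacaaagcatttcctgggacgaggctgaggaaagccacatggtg

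The levels of members with and without an ISRE core overlapped widely. The 15 measured members with an ISRE core had a median level of 7.81 (3.86 to 13.60), and the 19 with a window but no core had a median of 7.31 (3.70 to 13.85). Their median log2 differences from luciferase were 0.05 and 0.09 after 3XHMT siRNA, and 0.00 and 0.11 after Cbx3 siRNA. These are descriptions without a test.

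The members had very different signals, and no detection call was made. The median member read 7.01, beside 7.10 over all genes, and 28 of 45 (62.2%) lay above the median probe set, beside 63.4% of all genes. At the ends of the scale, Ifitm1 averaged 13.85 and Mx1 3.53. Signals of different probe sets depend on their probes, so they show which members were read well above the dim end of the array and do not order the transcripts. The median pooled SD of the members within groups was 0.264, against 0.181 over all genes.

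**Figure D1:**
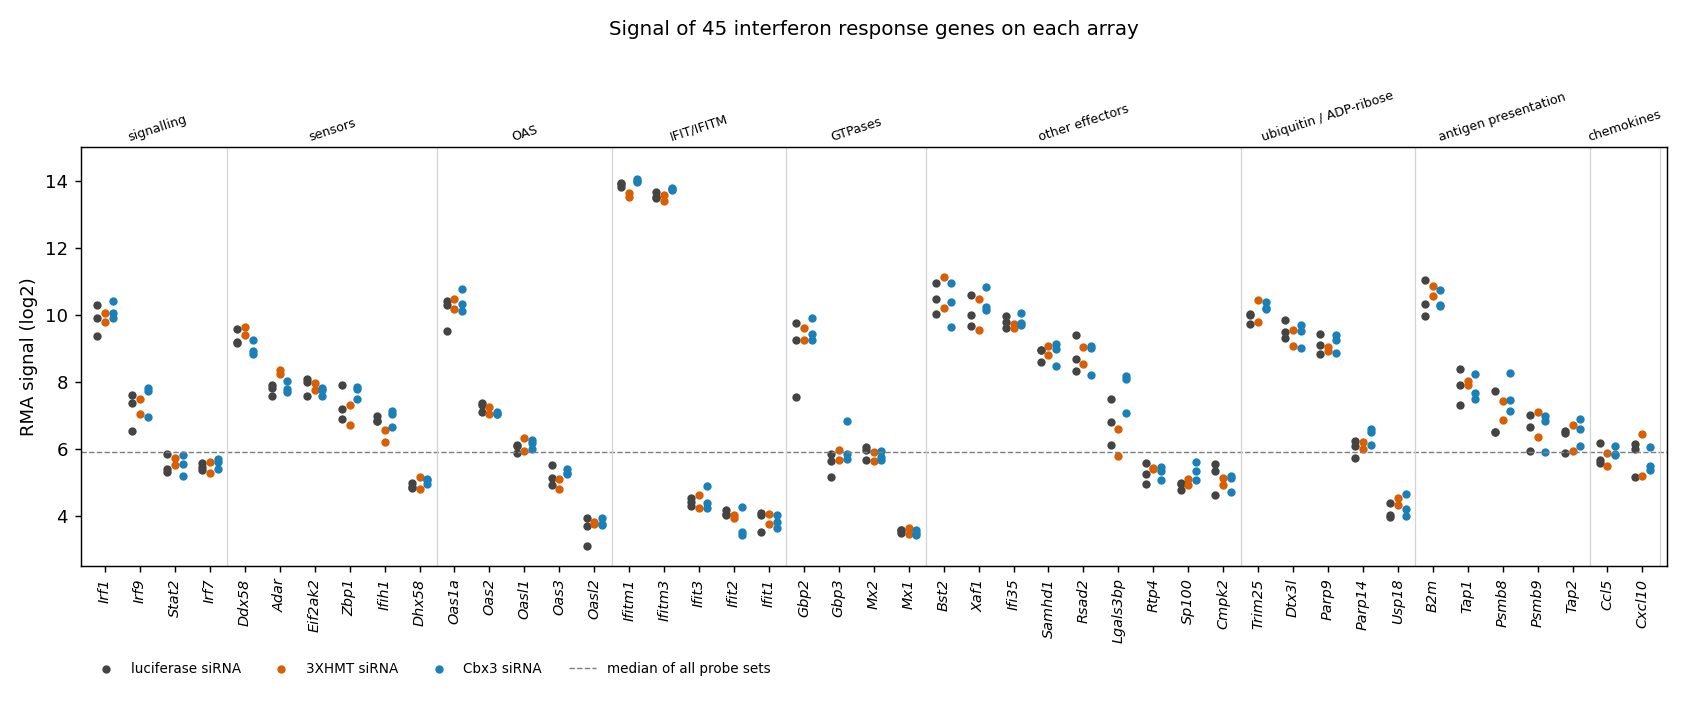
Log2 signal of each of the 45 measured interferon response genes on each of the 8 arrays, grouped by role, with 1 point per array coloured by siRNA group and a dashed line at the median of all probe sets. The 8-array means run from below 4 for Mx1, Oasl2, Ifit1 and Ifit2 to above 13 for Ifitm1 and Ifitm3, and the groups overlap for most members.

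Among the signalling and transcription factors, Irf1, an early-induced activator, read 9.36, 10.27 and 9.89 on the luciferase arrays, 10.05 and 9.79 on the 3XHMT arrays, and 10.06, 9.89 and 10.41 on the Cbx3 arrays. Irf7, the factor that amplifies type I interferon production, read 5.35, 5.58 and 5.46, then 5.59 and 5.26, then 5.59, 5.70 and 5.39 in the same order. Neither separated the groups. Stat2 and Irf9, which are parts of the complex that binds the response element, differed from luciferase by 0.10 ± 0.22 (SE) and 0.11 ± 0.36 after 3XHMT siRNA and by 0.00 ± 0.20 and 0.34 ± 0.32 after Cbx3 siRNA. None of the 4 factors passed the test in either knockdown.

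The sensors of foreign nucleic acid and the enzymes that act on double-stranded RNA held Adar and Ifih1, the members with the lowest p after 3XHMT siRNA. Adar, the deaminase that converts adenosine to inosine in double-stranded RNA, read 7.91, 7.81 and 7.56 on the luciferase arrays, 8.22 and 8.33 on the 3XHMT arrays, and 8.02, 7.77 and 7.70 on the Cbx3 arrays. Both 3XHMT arrays lay above every other array. Ifih1, which encodes the long double-stranded RNA sensor MDA5, read 6.81, 6.98 and 6.82 with luciferase siRNA, 6.54 and 6.21 with 3XHMT siRNA, and 7.11, 7.02 and 6.65 with Cbx3 siRNA. Both 3XHMT arrays lay below every other array. Ddx58, which encodes the RNA sensor RIG-I, read 9.14, 9.17 and 9.56 with luciferase siRNA, 9.62 and 9.38 with 3XHMT siRNA, and 8.92, 8.82 and 9.25 with Cbx3 siRNA. Its 3XHMT values lay above the Cbx3 values, and the luciferase values overlapped both. Dhx58, which encodes the related regulator LGP2, had a dim probe set at 4.84, 4.98 and 4.83, then 5.16 and 4.80, then 5.09, 4.95 and 5.06, with all groups overlapping. Eif2ak2, the kinase PKR, differed from luciferase by -0.03 ± 0.17 after 3XHMT siRNA and by -0.16 ± 0.16 after Cbx3 siRNA. Zbp1, a sensor of Z-form nucleic acid, differed by -0.31 ± 0.30 and 0.37 ± 0.27.

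The oligoadenylate synthetases make the second messenger that activates RNase L. Oas1a read 9.51, 10.27 and 10.39 on the luciferase arrays, 10.45 and 10.18 on the 3XHMT arrays, and 10.10, 10.31 and 10.76 on the Cbx3 arrays. Oas3 read 4.92, 5.11 and 5.51, then 5.10 and 4.78, then 5.24, 5.28 and 5.38. Oasl2, an Oas-like gene, had one of the dimmest probe sets at 3.09, 3.92 and 3.68, then 3.74 and 3.80, then 3.75, 3.71 and 3.93. Both 3XHMT values of Oas3 lay below all Cbx3 values, and the luciferase range overlapped both, while for Oas1a and Oasl2 all groups overlapped. All 5 members of the family had adjusted p-values above the threshold in all comparisons.

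The IFIT genes encode proteins that bind foreign RNA, and the IFITM genes membrane proteins that hinder virus entry. Ifit1 stayed near the dim end of the array at 3.51, 4.02 and 4.07 with luciferase siRNA, 4.04 and 3.75 with 3XHMT siRNA, and 4.03, 3.63 and 3.80 with Cbx3 siRNA. Ifit2 and Ifit3 averaged 3.92 and 4.44. Both IFITM members were bright and varied little: Ifitm1 read 13.90, 13.92 and 13.81 with luciferase siRNA, 13.63 and 13.51 with 3XHMT siRNA, and 13.99, 13.96 and 14.06 with Cbx3 siRNA. For Ifitm1 the groups did not overlap, with 3XHMT lowest and Cbx3 highest. Ifitm3 read 13.50, 13.65 and 13.49 with luciferase siRNA, 13.38 and 13.56 with 3XHMT siRNA, and 13.79, 13.74 and 13.71 with Cbx3 siRNA. Its Cbx3 values lay above all the others.

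Among the GTPases, Gbp2, a guanylate-binding protein of the cell-autonomous defence, read 7.54, 9.74 and 9.25 with luciferase siRNA, 9.61 and 9.25 with 3XHMT siRNA, and 9.89, 9.24 and 9.42 with Cbx3 siRNA. Luciferase 1 alone was low, and Gbp2 had the largest pooled SD of the members (0.77). Gbp3 read 5.16, 5.64 and 5.85, then 5.97 and 5.66, then 6.83, 5.85 and 5.68, with Cbx3 1 alone high. Mx1, a dynamin-like antiviral GTPase, stayed at 3.58, 3.49 and 3.58, then 3.46 and 3.62, then 3.58, 3.47 and 3.42.

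The antigen-presentation genes act in the supply of peptides to class I molecules and in their display. B2m, the light chain of class I molecules, read 11.02, 10.32 and 9.97 with luciferase siRNA, 10.86 and 10.56 with 3XHMT siRNA, and 10.73, 10.26 and 10.27 with Cbx3 siRNA. Tap2, a subunit of the peptide transporter, read 6.47, 6.52 and 5.87, then 6.70 and 5.93, then 6.88, 6.59 and 6.07. The group ranges overlapped for both. All 5 genes of this group had higher means after 3XHMT siRNA than after luciferase siRNA, by 0.03 to 0.27, and none passed the test.

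Of the ubiquitin-like modifier, ligase and ADP-ribosylation genes, Trim25, a ubiquitin ligase that acts on RIG-I, read 9.99, 10.02 and 9.72 with luciferase siRNA, 10.43 and 9.78 with 3XHMT siRNA, and 10.37, 10.21 and 10.17 with Cbx3 siRNA. The Cbx3 values lay above the luciferase values. Usp18, which removes ISG15 from proteins and restrains receptor signalling, read 3.95, 4.37 and 4.01, then 4.52 and 4.30, then 4.19, 4.0 and 4.64. Parp14, an ADP-ribosyltransferase, read 6.08, 6.22 and 5.73, then 6.19 and 6.0, then 6.59, 6.12 and 6.48. Both overlapped between groups. For Isg15, the ubiquitin-like modifier itself, the probe set shared with Gm9706 read 6.11, 6.89 and 6.48, then 7.03 and 6.76, then 6.69, 7.09 and 6.74. It differed from luciferase by 0.40 ± 0.23 after 3XHMT siRNA and 0.35 ± 0.21 after Cbx3 siRNA (limma over all probe sets, adjusted p = 1 and 0.904).

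The other antiviral effectors held Lgals3bp and Sp100, the members with the lowest p after Cbx3 siRNA. Lgals3bp, a secreted glycoprotein that binds galectin-3, read 6.80, 7.47 and 6.11 with luciferase siRNA, 6.57 and 5.78 with 3XHMT siRNA, and 8.09, 8.18 and 7.07 with Cbx3 siRNA. Its highest values were on the Cbx3 arrays of the middle and high 18S sets, Cbx3 3 overlapped the luciferase range, and all Cbx3 values lay above both 3XHMT values. Sp100, a component of PML nuclear bodies, read 4.93, 4.98 and 4.77 with luciferase siRNA, 5.08 and 4.90 with 3XHMT siRNA, and 5.59, 5.32 and 5.05 with Cbx3 siRNA. The Cbx3 values lay above every luciferase value, while Cbx3 3 overlapped the 3XHMT range. Bst2, the tetherin that holds budding virus at the membrane, read 10.46, 10.95 and 10.01, then 11.13 and 10.20, then 10.37, 10.93 and 9.63, ordered by 18S set rather than by siRNA within these arrays. Cmpk2, a mitochondrial nucleotide kinase, read 4.62, 5.53 and 5.34, then 5.12 and 4.91, then 5.12, 5.18 and 4.69. The groups overlapped for both chemokine genes, whose products recruit leukocytes. Cxcl10 read 5.14, 5.99 and 6.13, then 5.19 and 6.43, then 5.48, 5.37 and 6.06, and Ccl5 read 5.56, 6.16 and 5.65, then 5.87 and 5.49, then 6.08, 5.80 and 5.85.

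**Figure D2:**
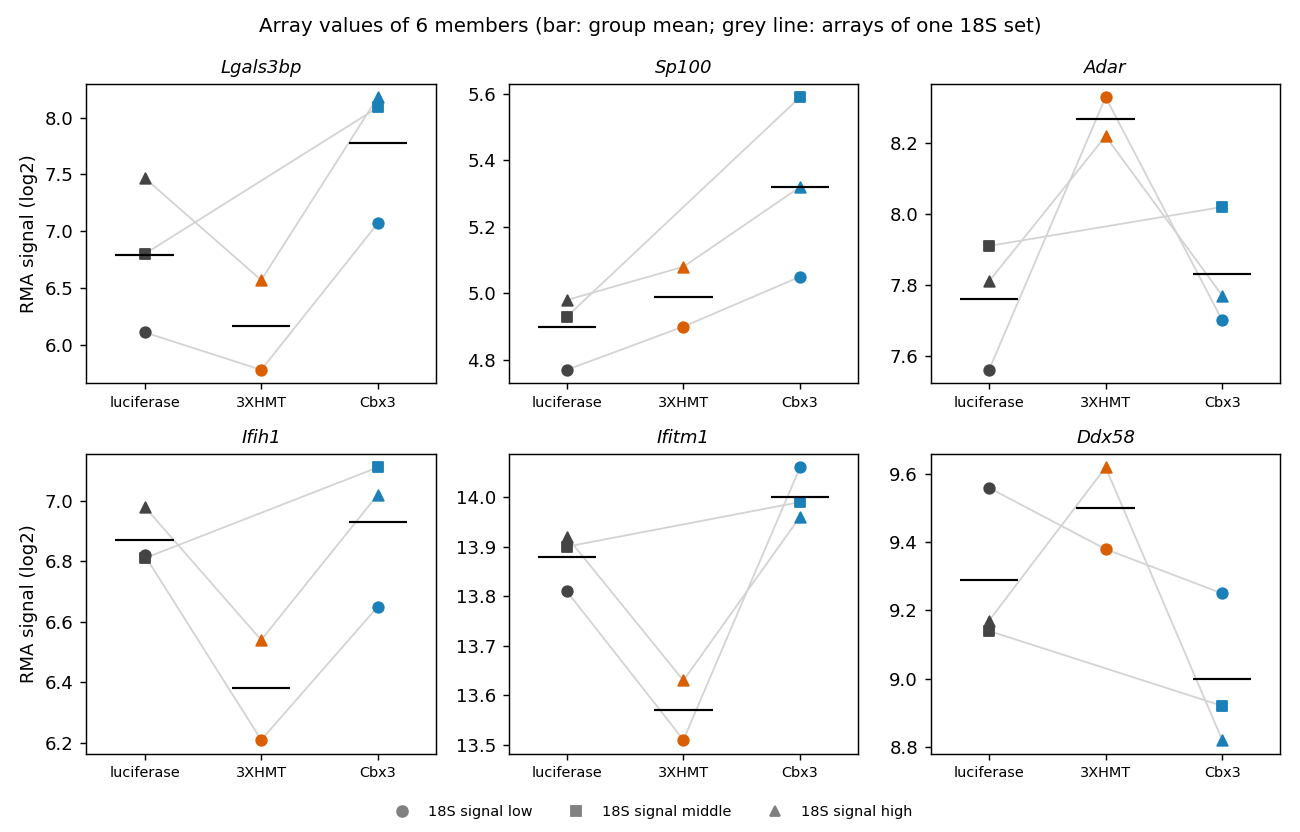
Log2 signal of Lgals3bp, Sp100, Adar, Ifih1, Ifitm1 and Ddx58 on each array, with points for arrays by siRNA group. Both 3XHMT arrays are above every luciferase and Cbx3 array for Adar and below them for Ifih1 and Ifitm1. The highest values of Lgals3bp and Sp100 are on Cbx3 arrays, while Cbx3 3 overlaps luciferase for Lgals3bp and 3XHMT for Sp100.

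After siRNA against the 3 methyltransferases, Adar was the member furthest above its luciferase level relative to its error, and Ifih1 and Ifitm1 were the furthest below. None was called: 0 of 45 members passed limma with Benjamini-Hochberg adjustment over all 18193 genes at 0.05, where 0.231% of genes passed. At an unadjusted p under 0.05 there were 3 members, 1 higher and 2 lower, which is 6.67% beside 5.27% of genes. The 3 were Adar, higher by 0.52 ± 0.15 (SE), and Ifih1 and Ifitm1, lower by 0.49 ± 0.17 and 0.31 ± 0.11, and for the same 3 both 3XHMT arrays lay on one side of all luciferase arrays (6.67%, beside 16.4% of genes). The lowest adjusted p was 0.484, for Adar. Means were higher for 26 members and lower for 19, with a median difference of 0.05 (-0.09 without 3XHMT 1, -0.04 without luciferase 3 and -0.01 without luciferase 1), and 51.7% of all genes were higher. Differences ran from -0.62 for Lgals3bp to 0.59 for Gbp2, and no member reached a 2-fold difference. The Gbp2 value rested on luciferase 1: the difference was 0.00 in the low 18S set and -0.13 in the high set. With the 18S set as a block, 1 member passed as higher, where 0.868% of genes passed as higher and 1.76% in either direction: Adar rose, by 0.60 with an adjusted p of 0.0455. Without any one of the 8 arrays this call was lost, with adjusted p-values from 0.0736 to 0.279, and the second brightest Adar probe set differed by -0.04.

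After Cbx3 siRNA the means of most members were slightly above luciferase, and that of Lgals3bp was the furthest above. Against luciferase, 0 of 45 members passed limma at an adjusted p of 0.05, where 0.445% of genes did, and 2 were higher at an unadjusted p under 0.05 (4.44%, beside 4.77% of genes higher and 9.56% in either direction). Those were Sp100, higher by 0.42 ± 0.15, and Lgals3bp, higher by 0.99 ± 0.41 with a 95% interval from 0.05 to 1.92 (1.98 times the luciferase level, adjusted p = 0.485). Means were higher for 31 members and lower for 14, with a median of 0.09, and 53.0% of all genes were higher. For 4 members, Sp100, Trim25, Ifitm3 and Ifitm1, the Cbx3 arrays lay above all luciferase arrays (8.89%, beside 7.52% of genes higher and 14.3% in either direction). Parp14, Trim25, Ifitm3 and Gbp3 had differences of 0.39 ± 0.17, 0.34 ± 0.18, 0.20 ± 0.11 and 0.57 ± 0.31, none past the threshold. The largest differences after Lgals3bp were those of Psmb8, a subunit of the immunoproteasome (0.71 ± 0.39), and Gbp2 (0.68 ± 0.49), also not past it. The values of Psmb8, Gbp2 and Gbp3 were largest in the middle 18S set, at 1.76, 2.35 and 1.67. They were 0.66, 0.17 and -0.16 in the low set and -0.28, -0.49 and 0.21 in the high set.

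The 18S set bore on the Cbx3 calls. With it as a block, 2 members passed, both higher (3.09% of genes passed as higher and 6.59% in either direction): Lgals3bp with an adjusted p of 0.00455 and Sp100 with 0.0491. In the 6 luciferase and Cbx3 arrays, whose replicate numbers pair them, with the replicate as a block, Lgals3bp passed (adjusted p = 0.00284) and Sp100 did not (0.0513), where 3.80% of genes passed as higher and 7.96% in either direction. In these 6 arrays the replicate numbers and the 18S sets group the arrays in the same way. The paired fit is thus the 18S block without the 3XHMT arrays and not a separate check. A blocked refit that leaves out either 3XHMT array is the same fit for this contrast. Within the 18S sets, Cbx3 minus luciferase was 0.96 (low), 1.29 (middle) and 0.71 (high) for Lgals3bp, and 0.27, 0.66 and 0.34 for Sp100. When the blocked fit was repeated without each of the 8 arrays, Lgals3bp stayed called every time, with differences from 0.84 to 1.15 and adjusted p-values from 0.00284 to just under the threshold (0.05 when rounded, without luciferase 3). Sp100 lost its call in all 8 (0.0513 to 0.313). All 6 epithelial markers were higher after Cbx3 siRNA with the 18S block, and their mean level ran from 9.33 to 9.76 on the Cbx3 arrays against 7.98 to 8.98 on the luciferase arrays and 8.33 to 8.40 on the 3XHMT arrays. The mean level of the 8 fibroblast markers was 5.36 to 5.44 on the Cbx3 arrays against 5.15 to 5.23 on the others. The part of these marker genes in the Lgals3bp and Sp100 results was not tested.

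**Figure D3:**
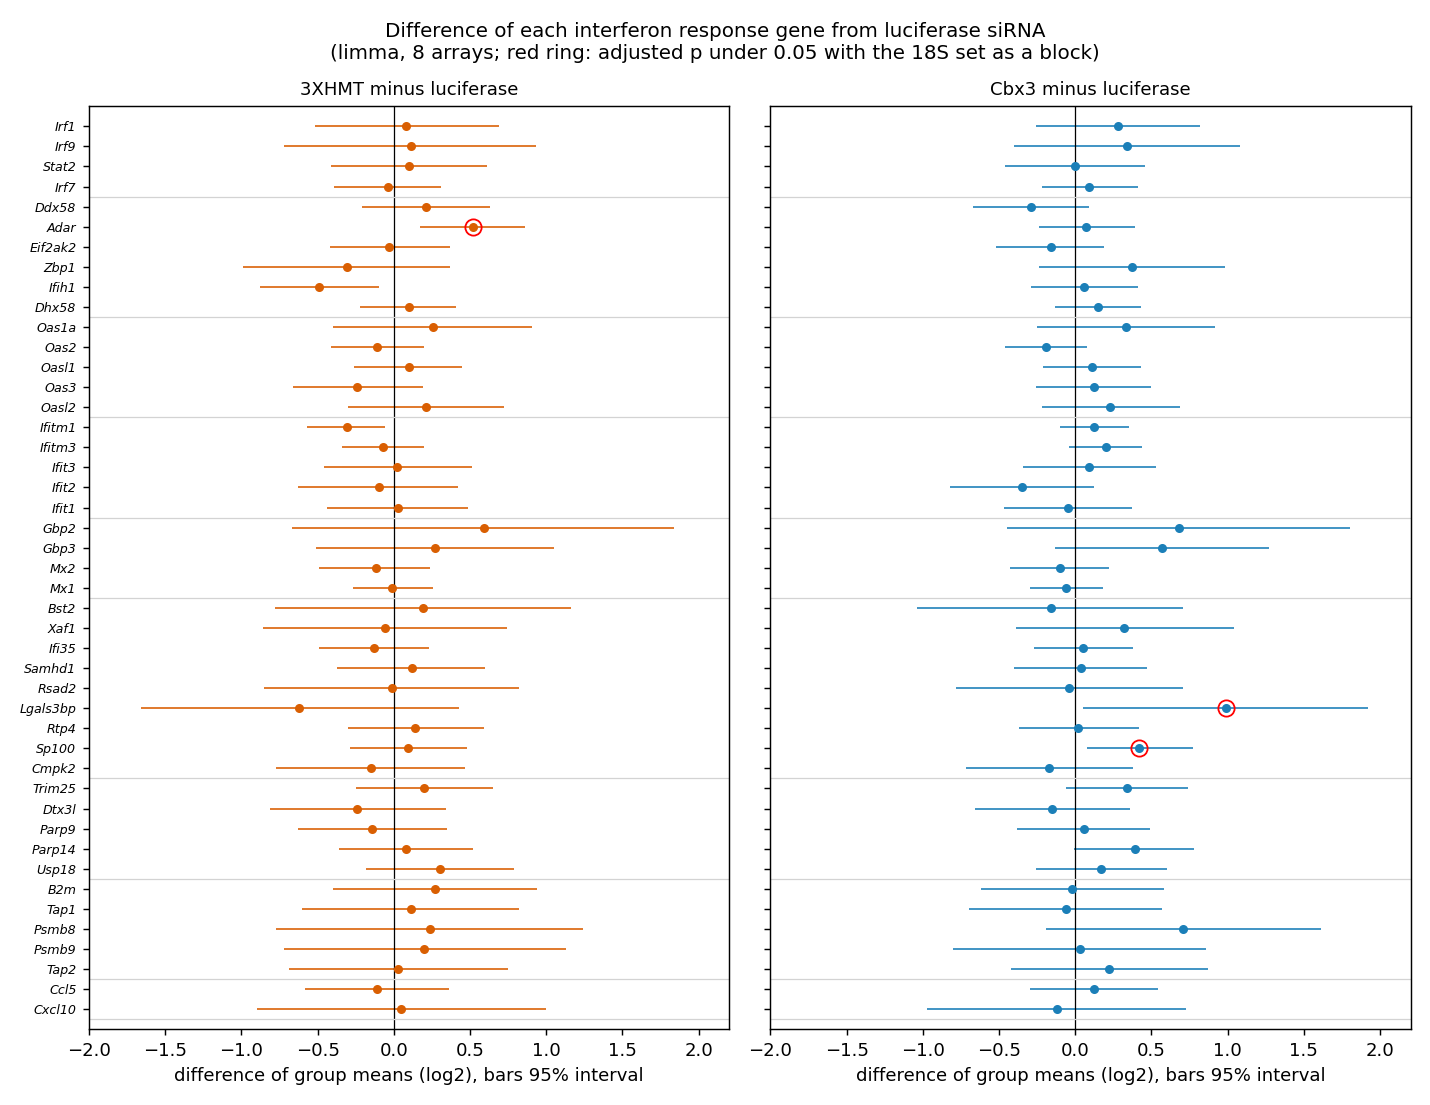
Log2 difference from luciferase of each measured interferon response gene after 3XHMT siRNA and after Cbx3 siRNA, with bars for the 95% confidence interval of limma on 8 arrays. A red ring marks the members that pass with the 18S set as a block, Adar after 3XHMT siRNA and Lgals3bp and Sp100 after Cbx3 siRNA.

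The knockdowns differed from each other most for Lgals3bp, which was lower after 3XHMT siRNA than after Cbx3 siRNA by 1.60 ± 0.46 (limma, adjusted p = 0.166). In this contrast 0 of 45 members passed, where 1.51% of genes did, and 7 had an unadjusted p under 0.05, 2 higher and 5 lower (15.6%, beside 11.4% of genes). The 2 groups did not overlap for 8 members (17.8%, beside 26.7% of genes), these 7 and Oas3. The 7 were Lgals3bp, Zbp1 (-0.69), Ifih1 (-0.55), Ifitm1 (-0.44) and Ifitm3 (-0.27), lower in 3XHMT, and Adar (0.44) and Ddx58 (0.50), higher. With the 18S set as a block 4 members passed, where 9.12% of genes did. Lgals3bp was lower in 3XHMT than in Cbx3 by 1.52 (adjusted p = 0.000998), Ifih1 by 0.52 (0.0399) and Ifitm1 by 0.43 (0.0447). Adar was higher in 3XHMT by 0.53 (0.0275). Against luciferase, the blocked differences of Lgals3bp were -0.54 after 3XHMT siRNA and 0.99 after Cbx3 siRNA (limma, adjusted p = 0.196 and 0.00455). Lgals3bp was called in all 8 refits of the blocked fit without 1 array, with values from -1.75 to -1.30. Adar kept its call without luciferase 2, luciferase 3 or 3XHMT 1 and lost it without any other array (adjusted p from 0.0365 to 0.236). Ifih1 and Ifitm1 lost theirs in all 8, with adjusted p-values from 0.0543 to 0.215 and 0.0654 to 0.263. The second brightest Adar probe set gave -0.29. The 3 contrasts share arrays, so their results are not independent of each other.

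The share of members at a high level differed between arrays of the same group. Relative to each gene's mean over the 8 arrays, 26.7%, 75.6% and 40% of the members were above it on luciferase 1, 2 and 3, 71.1% and 28.9% on 3XHMT 1 and 2, and 82.2%, 55.6% and 44.4% on Cbx3 1, 2 and 3. Over all genes the same share ran from 43.3% to 54.1%. Between arrays of the same 18S set, Cbx3 exceeded luciferase for 37 of 45 members in the middle set (median 0.34), for 24 in the low set (0.15) and for 15 in the high set (-0.11). These shares were 82.2%, 53.3% and 33.3%, beside 54%, 50.9% and 48.6% of all genes. For 3XHMT the counts were 20 of 45 in the low set (-0.07) and 19 in the high set (-0.05). Those were 44.4% and 42.2%, beside 47% and 50.3% of all genes. The excess of higher members after Cbx3 siRNA was widest in the pair of Cbx3 1 and luciferase 1. It was small in the low set and reversed in the high set, where 30 of 45 members were lower.

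**Figure D4:**
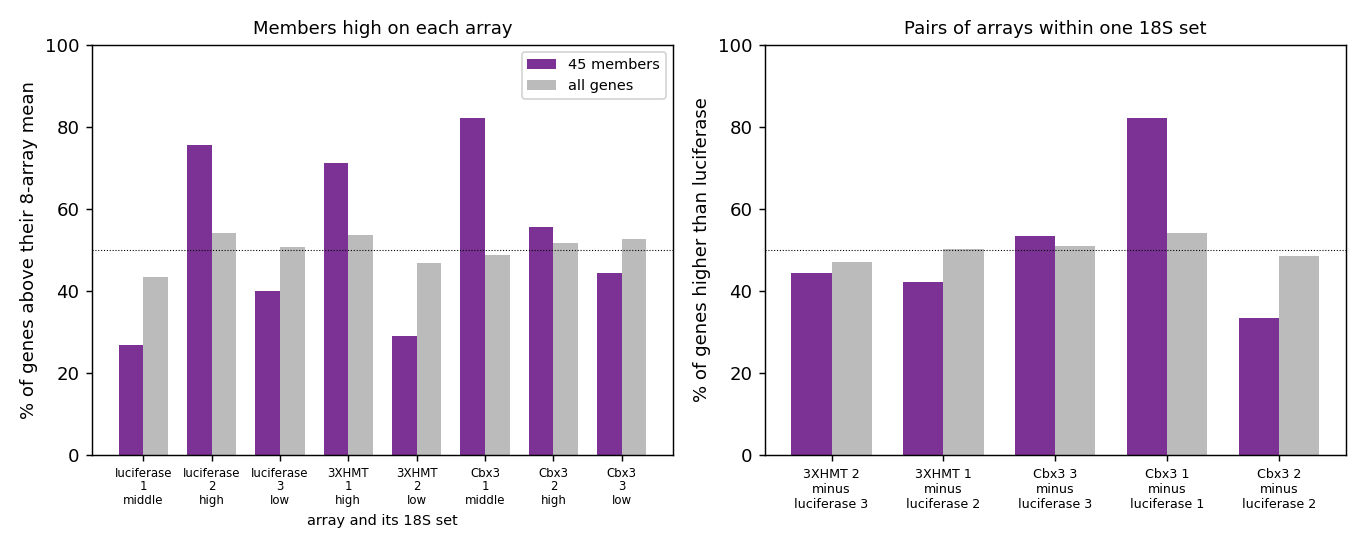
Left, the share in percent of the 45 interferon response genes and of all genes that lie above their own 8-array mean on each array, labelled with its 18S set. Right, the share in percent that is higher in the knockdown than in luciferase within arrays of the same 18S set. The members range from 26.7% to 82.2% on the left, and on the right the middle set pair of Cbx3 1 and luciferase 1 stands at 82.2%.

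After Cbx3 siRNA 8 members were higher in all 3 sets (Irf9, Oas1a, Ifitm1, Ifitm3, Tap2, Trim25, Lgals3bp and Sp100) and Ddx58 and Bst2 were lower in all 3, beside 22.1% and 20.1% of all genes. After 3XHMT siRNA, with 2 sets to compare, 10 were higher and 14 lower in both sets, beside 27.3% and 29.5% of all genes. The 18S sets also separated members within groups: 12 members, among them Irf7, Irf9, Bst2, Psmb8, Psmb9, Tap2, Xaf1 and Samhd1, were lower on all 3 low-set arrays than on all 3 high-set arrays (26.7%, beside 15.3% of genes), and Stat2 and Cxcl10 were higher (4.44%, beside 13.8%).

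Genes of the pathway outside the 47 were taken from a list of upstream genes (ligands, receptors, kinases, adaptors and regulators, 35 measured) and a list of other interferon-induced genes (39 measured). After 3XHMT siRNA none of either list passed limma, and with the 18S block 1 did, where 1.76% of genes passed: Phf11d fell, by 0.69 in the unblocked fit (adjusted p = 0.0481 with the block). After Cbx3 siRNA none passed either, but 10 of 39 other induced genes (25.6%) and 6 of 35 upstream genes (17.1%) were higher at an unadjusted p under 0.05, beside 4.77% of all genes. Means were higher for 30 of the 39 and 26 of the 35. Within the 18S sets, Cbx3 exceeded luciferase for 31 (low), 30 (middle) and 20 (high) of the 39. These were 79.5%, 76.9% and 51.3%, beside 50.9%, 54% and 48.6% of all genes. For the 35 upstream genes the counts were 23, 21 and 23 (65.7%, 60% and 65.7%), beside the same shares of all genes. Both lists were chosen with earlier results of these data known, so these shares are not tests of the lists. With the 18S block, where 6.59% of genes passed, 3 of the 39 (7.69%) and 3 of the 35 (8.57%) did. They were Tapbp (tapasin, which helps to load class I molecules), Irgm2 (an immunity-related GTPase) and Tdrd7 among the induced genes, higher by 0.70, 0.75 and 0.59 with adjusted p-values of 0.0144, 0.0236 and 0.0215. Among the upstream genes Il10rb, a receptor subunit of type III interferons, rose by 0.74 and Ptpn6, a phosphatase that dampens receptor signalling, by 0.84 (0.00613 and 0.01). Irf2, a repressor of interferon-induced genes, fell by 0.47 (0.0347). After 3XHMT siRNA, Irf2 and Ptpn6 moved the same way, by -0.56 and 0.58 with the block (limma, adjusted p = 0.072 and 0.167). Il10rb differed by 0.00 there. Tapbp read 9.83, 10.30 and 10.05 with luciferase siRNA, 9.68 and 9.36 with 3XHMT siRNA, and 10.89, 10.73 and 10.67 with Cbx3 siRNA, without overlap. Tapbp was the only gene of these lists called between the knockdowns without the block, lower in 3XHMT by 1.24 (adjusted p = 0.0162). With the block 5 of 39 induced genes (12.8%) and 3 of 35 upstream genes (8.57%) passed, all lower in 3XHMT, where 9.12% of genes passed in either direction. Interferon genes themselves were dim: Ifnb1 averaged 4.95 and Ifna4 4.13.

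Different probe sets of a gene did not always differ in the same direction. Of the 20 members with several, the brightest and second brightest differed from luciferase in the same direction for 13 after 3XHMT siRNA and for 15 after Cbx3 siRNA. The median gap between them was 0.13 and 0.14. The largest gaps were those of Adar after 3XHMT siRNA (0.56) and Psmb8 after Cbx3 siRNA (0.64), and the second probe set of Psmb8 was at 3.07 to 3.21 on all arrays.

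**Figure D5:**
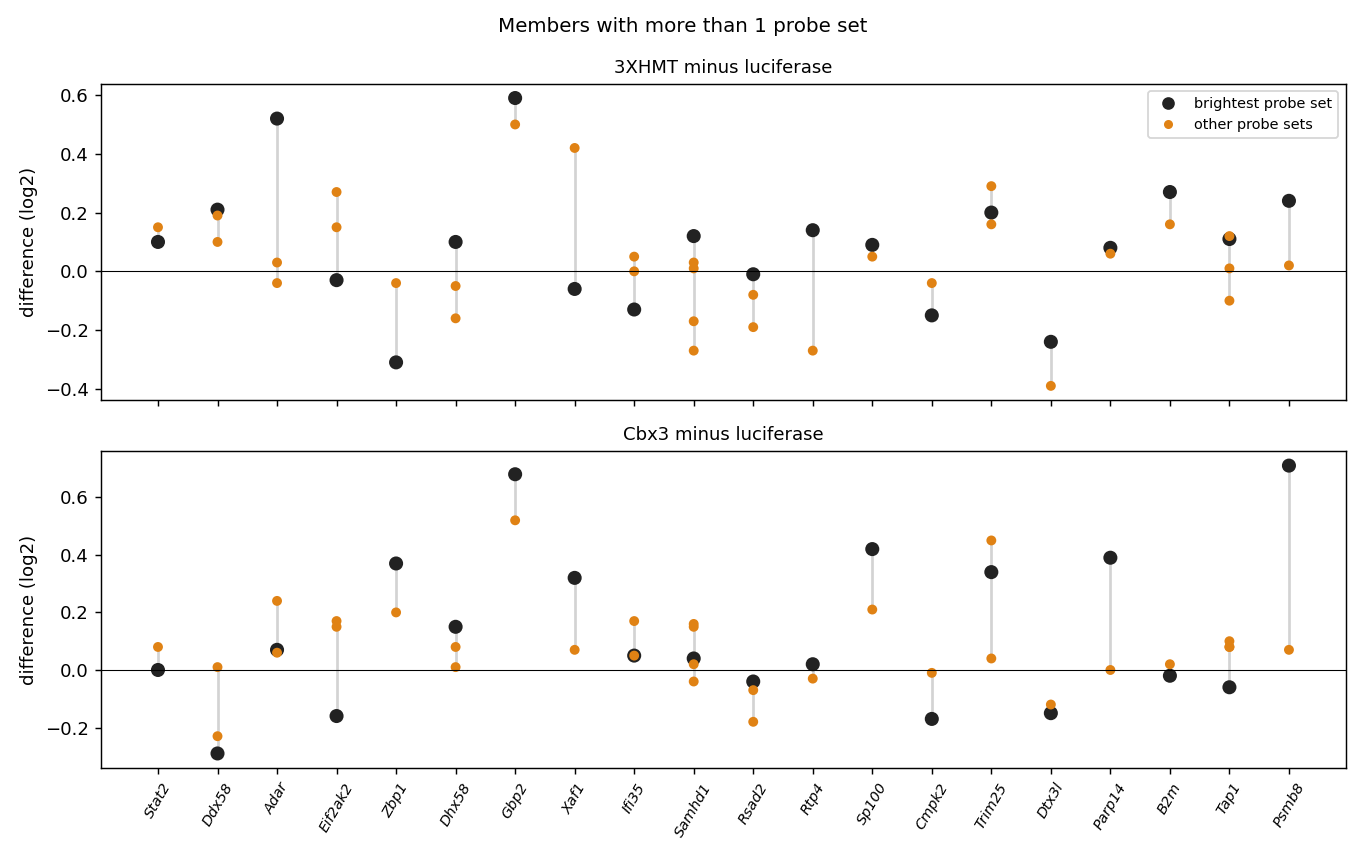
Log2 differences from luciferase for each probe set of the 20 interferon response genes that have several, after 3XHMT siRNA and after Cbx3 siRNA. The brightest probe set of each gene is marked apart from the others. For Adar after 3XHMT siRNA the brightest and second brightest probe sets, at 0.52 and -0.04, are 0.56 apart.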

How the data were processed

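Affymetrix arrays of 8 mouse pre-iPSC samples were analysed. The authors deposited log2 values made with RMA, per the submitters' processing notes, which give no version. RMA in general scales arrays to a common distribution and compresses differences of dim probe sets.

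Probe sets with 1 symbol in the platform annotation were kept (34945 of 45101) and the probe set with the highest mean stood for each gene. limma 3.58.1 in R 4.3.3 fitted all 8 arrays in 3 groups, two-sided, with Benjamini-Hochberg adjustment over 18193 genes. The unblocked fit of Cbx3 against luciferase was tested on simulated data with independent noise on each array. In the real data, arrays of one 18S set deviated together, so the simulation does not cover this shared noise. The blocked fits were not tested in this way. Precision is limited by 2 or 3 arrays a group. Alternatives were the 18S set or replicate number as a block, other probe sets per gene, a filter on dim probe sets, cyclic loess, 2 groups only, and each array left out. Same-numbered luciferase and Cbx3 arrays deviated together (correlations 0.57, 0.59 and 0.74), so the numbers pair them; those of 3XHMT (0.11 and -0.56 with luciferase) do not. Values by array are given for the 6 members with the lowest p in each comparison, for members called with or without a block, and for the brightest and dimmest member of each role. Members and lists were chosen with earlier results of these data known. Promoter windows came from RefSeq (36 of 47 members matched).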

Additional observations from a re-analysis of the deposited data

How the results depend on the processing

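No member passed in any contrast under the second probe set, the mean of probe sets, cyclic loess, 2 groups only, or filters on dim or multi-match probe sets (28 members left without dim ones). With the 18S set as a block the members called were 1 for 3XHMT against luciferase, 2 for Cbx3 against luciferase and 4 for 3XHMT against Cbx3. With the labels' replicate block they were 0, 0 and 2 in that order (Ddx58, 0.63, and Lgals3bp, -1.95, in the last), and 1 for Cbx3 against luciferase in the 6 paired arrays; it changed no other call. Leaving out each array in turn, with and without the 18S block, gave 0 to 0, 0 to 4 and 0 to 4 called members. Median differences over the members ran from -0.09 to 0.17, 0.02 to 0.15 and -0.20 to 0.08 in those refits. The first changed sign without 3XHMT 1, luciferase 1, luciferase 3 or, in the blocked fit, Cbx3 1, and the last without 3XHMT 2, at 0.08, without Cbx3 1, at 0.04, or, in the blocked fit, luciferase 1. With the second probe set Adar reversed, at -0.04 against luciferase and -0.29 against Cbx3. The cause of these shifts was not tested. With 2 or 3 arrays a group, small differences of dim probe sets were not detectable.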
